A study of Saccharomyces cerevisiae with 6 samples.

Results

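The time course of the tra1-2ts strain of the budding yeast Saccharomyces cerevisiae was followed across all measured genes, on 3 of the 6 arrays of the series. Its members were chosen by label: the arrays of RNA taken when cells grown at 30 °C had spent 60, 90 or 120 min at 37 °C. The question was how each transcript moved from 60 to 120 min and whether its 90 min value lay between. The strain is MATa and carries the alleles ura3-52 and lys2-801, ade2-101 with trp1∆63, and his3∆200 together with leu2∆1. Its chromosomal TRA1 gene is replaced (tra1::HIS3), and a centromeric plasmid written [tra1-2ts/CEN/LEU2] supplies the only copy of TRA1, a temperature-sensitive one. The wild-type strain has the same genotype with TRA1 on the plasmid and serves at the end as a contrast. All cultures grew in rich medium (YPD), and both strains were shifted, so no unshifted array enters here. There was 1 array per time, so a value at a single time has no error, and nothing in the labels says whether the times came from separate cultures. P-values therefore measure the spread between these arrays, which may be technical.

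Tra1 resembles phosphatidylinositol 3-kinases in sequence but is not known to act as a kinase. It is a shared subunit of SAGA and NuA4, coactivator complexes with histone acetyltransferases, and transcriptional activators contact it when they recruit these complexes to promoters. In yeast moved to a higher temperature, the transcription factor Hsf1 drives chaperone genes and Msn2 and Msn4 drive general stress genes, and both programmes are known to peak early and then decline. Cell division also pauses and resumes after a heat shift, and many cell cycle genes are transcribed in a single phase.

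Values are RMA signals on the log2 scale. RMA makes the distributions of all arrays alike, so a change shared by all transcripts cannot be seen. The 3 arrays had medians of 6.14 to 6.16, and Pearson's r across probe sets was 0.996, 0.993 and 0.996 for 60 with 90, 60 with 120 and 90 with 120 min. Of 6776 probe sets, 5668 named 1 gene, and these gave 5551 genes after 1 set was kept per gene. The 4 mouse control probe sets, which have no yeast target, averaged 3.19 over the 3 arrays. The TRA1 probe set read 9.35, 9.38 and 9.38 at 60, 90 and 120 min; it does not tell the alleles apart and so checks no label. LEU2, the plasmid marker, read 9.26, 9.18 and 9.12, and HIS3, the marker at the disrupted locus, read 8.45, 8.46 and 8.50. None of these 3 genes passed the test described next. The mating type label was set against its genes: MFA2, an a-factor gene, read 12.98, 12.93 and 12.98, whereas the alpha-specific receptor gene STE3 read 3.64, 3.74 and 3.81 and the alpha-factor gene MF(ALPHA)2 read 4.18, 3.98 and 4.26. Other alpha-specific genes read higher than these, since the 4 listed had medians of 4.90, 4.71 and 4.98. The 9 listed a-specific genes had medians of 7.77, 7.70 and 7.82.

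Most transcripts moved little in this hour. The change from 60 to 120 min had a median of -0.02 on the log2 scale, with quartiles of -0.17 and 0.13, and 90% of genes lay between -0.44 and 0.39. At 2-fold or more, 11 genes were higher at 120 min (0.198% of 5551) and 13 were lower (0.234%), 24 or 0.432% in all. At 1.5-fold, 74 were higher (1.33%) and 108 were lower (1.95%), 182 or 3.28% in all. A straight line over minutes was then fitted per gene with limma, whose slope per 60 min equals the change from 60 to 120 min. The distance of the 90 min value from the midpoint is the only residual, so a bend in time counts as error and a straight course is favoured. By this test 117 genes rose (2.11%) and 178 fell (3.21%), 295 or 5.31% in all, at a Benjamini-Hochberg adjusted p under 0.05; 1164 had an unadjusted p under 0.05. These calls depend on how the spread is estimated: 0 genes passed after a further quantile normalization of the tested genes (smallest adjusted p 0.0762) and 0 when the spread was taken from both strains in 1 fit (smallest adjusted p 0.0664). In what follows "rose" and "fell" refer to the within-strain test. The counts of each gene list are to be read beside the 2.11% of all genes that rose and the 3.21% that fell.

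**Figure D1:**
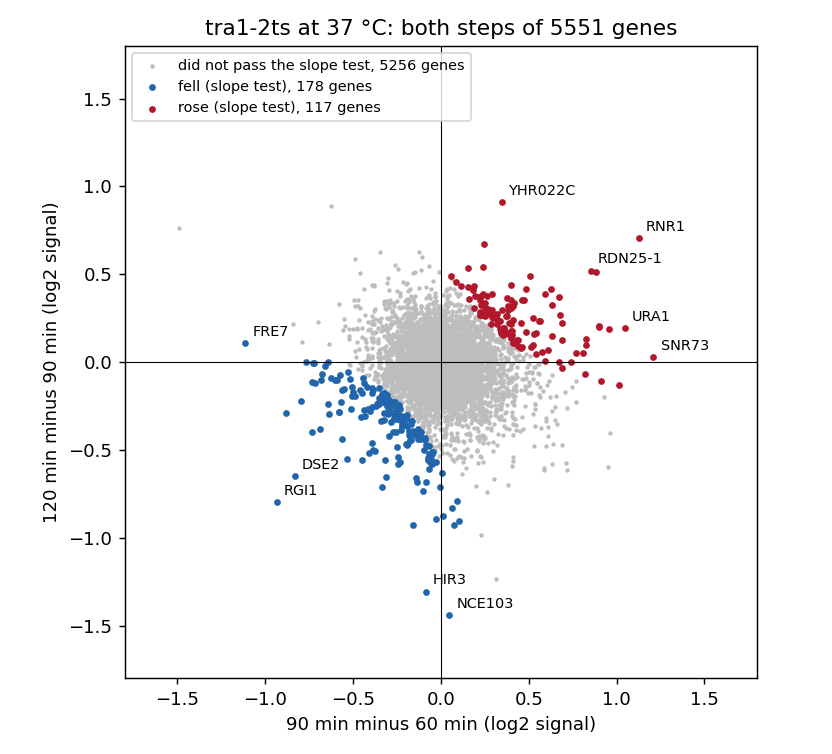
Change of each of 5551 genes in tra1-2ts from 60 to 90 min (x axis) and from 90 to 120 min (y axis), both in log2 signal; red points passed the slope test as rises (117), blue points as falls (178), grey points did not pass. RNR1 lies to the upper right and RGI1 to the lower left, while HIR3 and NCE103 lie straight below the centre because nearly all of their fall came after 90 min; both axes share the 90 min array.

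The largest rise was that of RNR1, the large subunit of ribonucleotide reductase, which makes the building blocks of DNA. It read 7.19 at 60 min, 8.32 at 90 min and 9.02 at 120 min, a 3.56-fold rise (log2 slope 1.83 ± 0.15 (SE) per 60 min, adjusted p = 1.32e-05). The largest fall was that of RGI1, a gene of energy metabolism induced in respiratory growth, which read 6.20, 5.27 and 4.47, a 3.32-fold fall (-1.73 ± 0.14, adjusted p = 1.32e-05). In both genes the 90 min value lay near the middle of the course. DSE2, an enzyme gene of daughter-cell separation, was the next largest fall at 10.13, 9.30 and 8.65 (2.79-fold).

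The other large rises came from several kinds of genes. URA1, dihydroorotate dehydrogenase of pyrimidine synthesis, read 8.83, 9.87 and 10.07 (2.36-fold), so most of its rise was complete by 90 min. MDH2, the cytosolic malate dehydrogenase of gluconeogenesis, read 8.11, 8.78 and 9.16 (2.06-fold). FLO1, a cell surface flocculin with close relatives in the genome, read 4.68, 5.31 and 5.73 (2.06-fold). These 3 genes rose at both steps, which the rule that named the largest rises required. YHR022C, an uncharacterized gene, differed in timing: it read 4.14, 4.49 and 5.40 (2.39-fold), with 28.0% of its rise reached by 90 min. TOS6, a cell wall protein gene, rose 1.95-fold over 9.71, 10.34 and 10.67. SNO1, a gene of vitamin B6 metabolism, rose 1.88-fold over 7.68, 8.38 and 8.60, and YGR079W, of unknown function, rose 1.89-fold over 6.13, 6.37 and 7.05.

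Among the other large falls, REE1, named for a role in regulating enolase, read 9.88, 9.00 and 8.71 (2.26-fold), and CTR1, the high-affinity copper transporter, read 6.55, 5.76 and 5.53 (2.03-fold). In both, most of the fall lay before 90 min. ARA1, a sugar dehydrogenase, read 8.69, 8.36 and 7.64 (2.06-fold), mostly after 90 min. YBR053C and ECM3 fell evenly over both steps, by 2.13-fold and 2.00-fold. HIR3, a subunit of the HIR histone chaperone, read 6.07, 5.98 and 4.67 (2.63-fold), and ADD66, a proteasome assembly chaperone, read 6.13, 5.97 and 5.04 (2.13-fold). These last genes had changed little by 90 min.

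Over all genes the 90 min value lay between the other 2 in 2681 of 5551 (48.3%). It lay above both in 1573 (28.3%) and below both in 1297 (23.4%). The share depended on the size of the change: it was 17.6% of 1926 genes that differed by under 0.1 on the log2 scale, 52.5% of 2063 between 0.1 and 0.25, 78.5% of 1241 between 0.25 and 0.5, 88.2% of 297 between 0.5 and 1, and 91.7% of the 24 at 1 or more. A larger change makes a value between more likely whatever the cause, so this climb does not show that large changes ran one way. The exceptions among the 24 were NCE103 and FRE7. NCE103, carbonic anhydrase, read 8.08, 8.13 and 6.69, so its fall came wholly after 90 min. FRE7, a reductase gene of metal uptake, read 4.65, 3.54 and 3.65, with no further fall after 90 min. From then on it lay within the range of the mouse controls (2.29 to 4.16 over the tra1-2ts arrays), where a further fall could be hidden. Of the genes that passed the slope test, the 90 min value lay between in 111 of 117 rises and 169 of 178 falls, 94.9% of each, a share that the test itself favours.

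**Figure D2:**
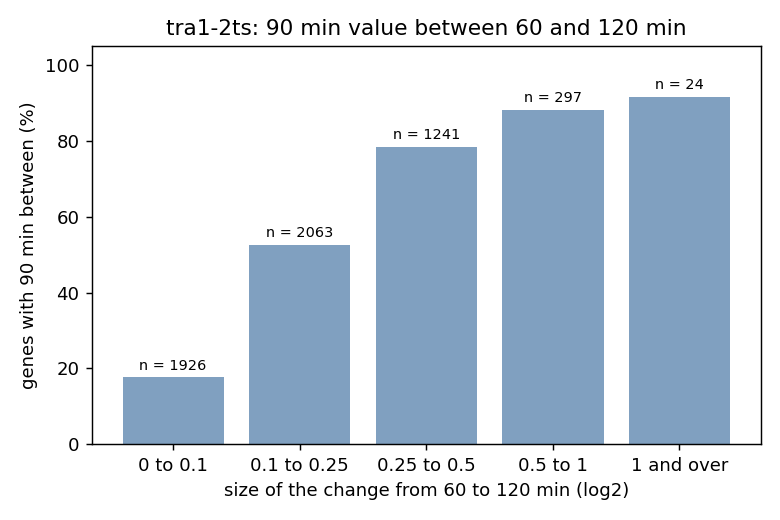
Share of genes (%) whose 90 min value lay between the 60 and 120 min values in tra1-2ts, by the size of the change from 60 to 120 min (log2 signal); n above each bar is the number of genes. The share climbs from 17.6% to 91.7% with the size of the change, and a larger change makes a value between more likely whatever the cause.

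Rises had gone further by 90 min than falls, a difference that was not tested. Among the 74 genes at least 1.5-fold higher at 120 min, the median share of the change reached by 90 min was 64.6% (quartiles 54.0% and 85.5%), and 1 gene had reached under 25%. Among the 108 genes at least 1.5-fold lower, the median was 50.5% (quartiles 17.5% and 72.6%), and 28 had reached under 25%. Protein-coding genes made up 107 of these 108 falls but 50 of the 74 rises, so the groups also differ in kind of RNA. Counted by step, 57 genes (1.03%) were 1.5-fold higher and 27 (0.486%) lower at 90 than at 60 min, against 9 (0.162%) higher and 33 (0.594%) lower at 120 than at 90 min. These counts come from single arrays, with the 90 min array in both steps, so no error can be given.

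A turn at 90 min of 1.5-fold or more was rare, with 4 genes above both other times (0.0721% of genes) and 2 below (0.036%). With 1 array per time, such a turn has no error and cannot be told from a deviation of the 90 min array. FZO1, the mitofusin of mitochondrial outer membrane fusion, read 5.41, 6.36 and 5.76. PUG1, a plasma membrane protein for porphyrin and heme transport, read 6.52, 7.24 and 6.63. YSR3, a sphingolipid phosphatase, read 6.05, 6.64 and 6.02, and TIS11, a regulator of mRNA decay under low iron, read 4.29, 4.88 and 4.27. The genes below both were DOG1, at 3.52, 2.90 and 3.79, and the pseudogene YIR043C, both near the mouse controls. With each array centred on its median, 0 genes peaked and 2 dipped by 1.5-fold or more.

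Several genes of DNA synthesis and the G1/S transition, the point at which cells commit to division, rose. Of 45 listed genes, 7 rose and 1 fell, with a median change of 0.26 against -0.02 over all genes. Besides RNR1 these were YOX1, a repressor of cell cycle genes, at 5.11, 5.59 and 5.94 (1.77-fold), the G1 cyclin PCL1 at 5.70, 6.22 and 6.47 (1.71-fold), the cohesin subunit MCD1 at 3.94, 4.13 and 4.56 (1.53-fold), and RFA2, RSR1 and ASF1, which rose 1.49-fold, 1.45-fold and 1.43-fold. The gene that fell was MBP1, the DNA-binding subunit of the MBF factor of this phase, at 5.27, 4.95 and 4.72. Among 5 measured histone genes, HTB2 of histone H2B rose from 7.87 through 8.38 to 8.87 (1.99-fold, slope 1.00 ± 0.13, adjusted p = 0.00118), and the other 4 did not pass, with a list median of 0.08. Of 34 genes of G2 and mitosis 0 passed in either direction, with a median of 0.07, where 5.31% of all genes passed.

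Of 24 genes of daughter separation and the M/G1 interval, 9 fell and 0 rose, with a median of -0.32, and 9 were at least 1.5-fold lower at 120 min. DSE4, a glucanase, read 7.40, 6.67 and 6.27 (2.19-fold). DSE1, a daughter-specific wall gene, read 4.28, 3.59 and 3.21 (2.10-fold) and ended at the level of the mouse controls. SCW11, another glucanase, read 6.73, 6.09 and 5.85 (1.84-fold), and CTS1, the chitinase that cuts the septum, read 10.83, 10.44 and 9.97 (1.81-fold). EGT2 fell 1.62-fold, PRY3 1.54-fold, and CHS1 1.53-fold, and PIR1 read 11.61, 11.31 and 11.03; like DSE2, these genes fell at both steps. In bulk RNA, fewer cells in a phase and less RNA per cell cannot be told apart. Of 42 cell wall genes, which share some members with this list, 4 fell and 1 rose (FLO1), among them SLT2, the MAP kinase of the wall integrity pathway, at 9.16, 8.79 and 8.28 (1.85-fold).

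**Figure D3:**
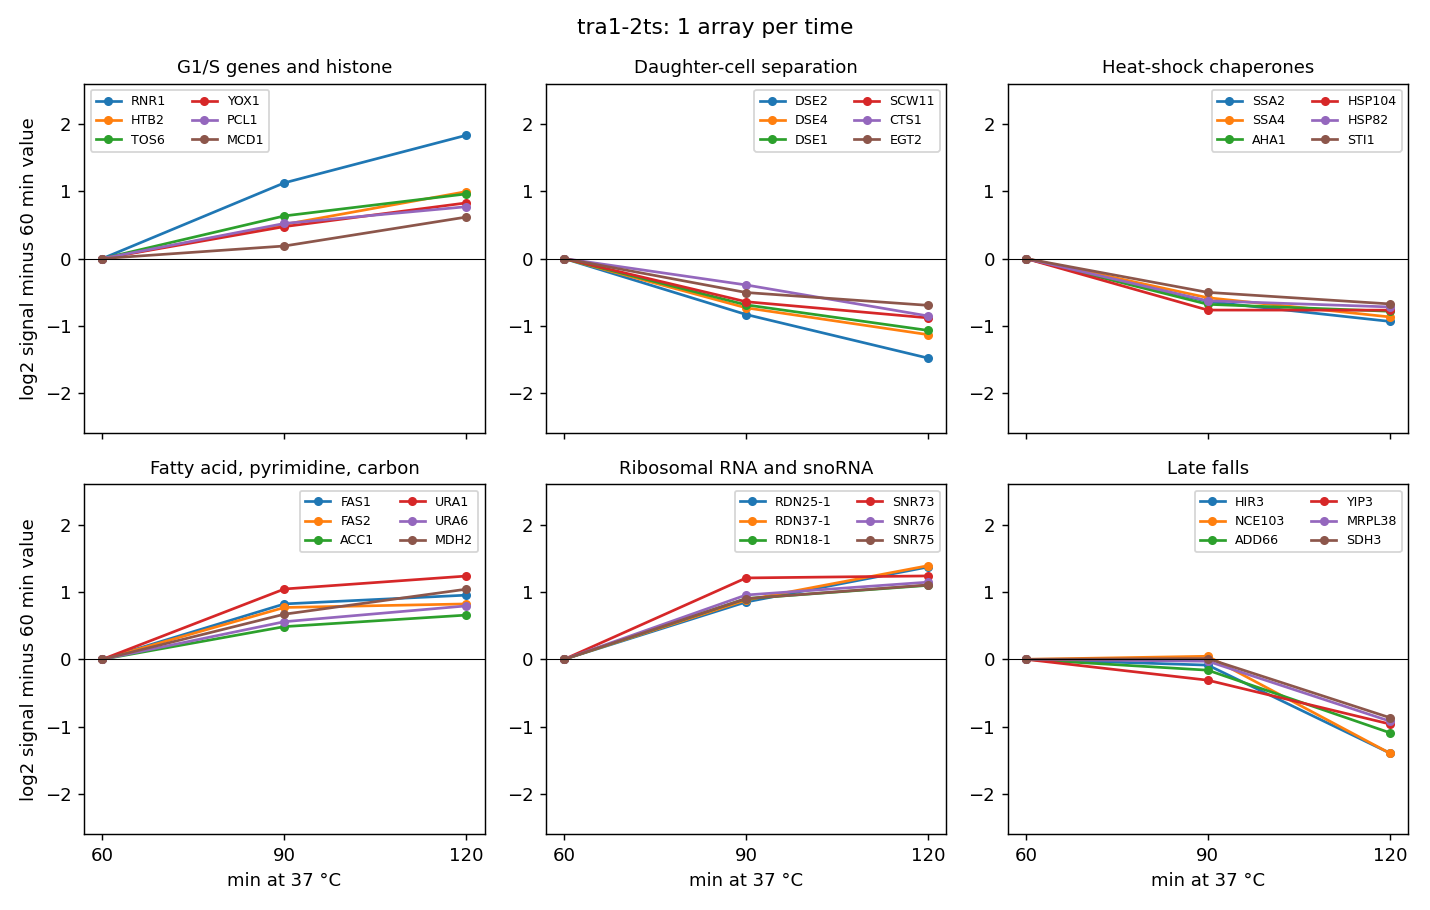
Log2 signal minus the 60 min value against minutes at 37 °C in tra1-2ts, 1 array per time and 1 line per gene, in 6 groups. Rises of fatty acid and snoRNA genes flatten after 90 min, and those of G1/S genes go on. The separation and chaperone genes fall over both steps, apart from HSP104, which stays level after 90 min. The genes grouped as late falls stay near 0 until 90 min, apart from YIP3, which was 0.31 lower by then.

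Some heat-shock chaperone genes fell. Of 35 listed genes 9 fell and 0 rose, with a median of -0.27. SSA2, a cytosolic Hsp70, read 12.90, 12.26 and 11.97 (1.91-fold), and SSA4, its stress-inducible relative, read 9.47, 8.89 and 8.61 (1.83-fold). AHA1, an activator of Hsp90, read 9.52, 8.84 and 8.73 (1.72-fold), and HSP104, the disaggregase, read 8.93, 8.17 and 8.17 (1.70-fold), so these fell mostly before 90 min. HSP82, an Hsp90 gene with a close copy, fell 1.65-fold, CPR6 1.63-fold, STI1 1.60-fold, SSA3 1.51-fold and SSA1 1.47-fold. SSA3 differed in timing, at 7.10, 7.01 and 6.51. Sequences of the SSA genes are alike, so their probe sets may share signal.

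Of 58 general stress genes of Msn2 and Msn4, 6 fell and 1 rose, with a median of -0.13. TMA10, a ribosome-associated protein, read 7.75, 7.86 and 6.95 (1.75-fold), all after 90 min. GSY1, a glycogen synthase, read 4.79, 4.55 and 3.98 (1.75-fold), and UGA2, of GABA breakdown, read 4.86, 4.57 and 4.14 (1.65-fold). Both ended within the range of the mouse controls (2.29 to 4.16). PNC1, STF2 and OXR1 fell 1.57-fold, 1.55-fold and 1.52-fold, and RIM4, a regulator of meiosis, rose 1.45-fold. HXK1, a hexokinase of this list, did not pass at 9.72, 8.93 and 9.05 (adjusted p = 0.0564). Of 24 genes of folding in the endoplasmic reticulum 2 fell and 0 rose, with a median of -0.11: MPD1, a disulfide isomerase relative, fell 1.53-fold, and KAR2, its Hsp70, fell 1.42-fold over 10.60, 10.25 and 10.10, a call lost with medians centred (adjusted p = 0.0732).

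Of 20 genes of the mitochondrial tricarboxylic acid cycle 4 fell and 0 rose, with a median of -0.18 and median steps of -0.09 from 60 to 90 min and -0.03 from 90 to 120 min. FUM1, fumarase, read 10.04, 9.72 and 9.17 (1.84-fold), and SDH3, a succinate dehydrogenase subunit, read 8.79, 8.80 and 7.92 (1.82-fold). IDH1, of isocitrate dehydrogenase, read 10.50, 10.26 and 9.72 (1.72-fold), and MDH1, the mitochondrial malate dehydrogenase, read 9.38, 9.12 and 8.72 (1.58-fold). In these 4 called genes, though not in the list's median, the larger part of the fall came after 90 min. Of 68 mitochondrial ribosomal protein genes 4 fell and 0 rose, with a median of -0.14 and median steps of -0.01 and -0.16; 4 of 68 is not far from the share of all genes that fell (3.21%). MRPL38 read 8.21, 8.19 and 7.29 (1.89-fold), MRPL44 fell 1.59-fold, RSM24 read 7.24, 7.17 and 6.65, and MRPL31 read 7.68, 7.55 and 7.11. Of 38 genes of the respiratory chain and ATP synthase 0 passed in either direction, with a median of 0.00, where 5.31% of all genes passed.

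In a list of 24 genes of phospholipid and fatty acid synthesis, 3 rose and 1 fell, with a median of -0.04. The 3 were FAS1 and FAS2, the subunits of fatty acid synthase, and ACC1, the acetyl-CoA carboxylase that feeds it. FAS1 read 9.02, 9.85 and 9.98 (1.94-fold), FAS2 read 10.81, 11.58 and 11.63 (1.77-fold), and ACC1 read 10.28, 10.77 and 10.94 (1.58-fold). All 3 rose mostly before 90 min. The gene that fell was PSD1, phosphatidylserine decarboxylase of mitochondria, at 7.77, 7.84 and 6.92 (1.81-fold). None of 26 ergosterol genes passed in either direction.

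Transport and amino acid genes moved in both directions. Of 33 iron uptake genes 3 rose and 2 fell: FTR1 and FET3, the permease and oxidase of high-affinity iron uptake, read 6.58, 7.38 and 7.44 (1.81-fold) and 7.68, 8.59 and 8.48 (1.75-fold), ISU2 rose 1.56-fold, and the reductase gene FRE1 and the oxidase gene FET5 fell 1.54-fold and 1.42-fold. Of 18 genes of hexose transport and glucose sensing 4 rose and 2 fell. HXT1, the low-affinity transporter, read 10.24, 10.92 and 10.92 (1.59-fold), and the regulators RGT1 and RGT2 and the transporter HXT4 rose 1.53-fold, 1.52-fold and 1.51-fold. The high-affinity transporters HXT6 and HXT7 fell, at 9.70, 8.97 and 8.86 and at 9.92, 9.24 and 9.18; they are near-identical copies whose signals cannot be separated with confidence.

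Of 8 lysine synthesis genes 3 fell and 0 rose, namely LYS9 at 10.09, 9.59 and 9.40 (1.61-fold), LYS1 (1.49-fold) and LYS12 (1.46-fold). The sulfur and methionine list had 3 falls in 35 genes. SAM2, S-adenosylmethionine synthetase, read 9.79, 9.69 and 8.96 (1.79-fold), and MET17 and MET6 each fell 1.54-fold, with most of the fall after 90 min in all 3 genes. Of 15 arginine and glutamate genes 2 rose and 1 fell: ARG3, of arginine synthesis, read 6.71, 7.11 and 7.46 (1.69-fold), CAR1, arginase, read 10.48, 11.30 and 11.24 (1.69-fold), and GDH2 fell 1.46-fold. ADE13, of purine synthesis, fell 1.66-fold over 8.10, 7.85 and 7.36, whereas URA6, of pyrimidine nucleotide synthesis, rose 1.73-fold over 8.39, 8.95 and 9.19.

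Few genes of the ribosome and of Tra1's own complexes passed, where 2.11% of all genes rose and 3.21% fell. For the SAGA, NuA4 and cytosolic ribosomal protein genes the counts are near these shares and do not set the lists apart. Of 146 ribosome biogenesis genes 0 rose and 0 fell, with a median of 0.06, and of 76 cytosolic ribosomal protein genes 3 fell and 0 rose, with a median of -0.06. The 3 were RPL24A, RPL27B and RPS25A, which fell 1.47-fold, 1.47-fold and 1.44-fold. Of 20 SAGA genes 1 fell and 0 rose: NGG1, which encodes the subunit Ada3, read 3.91, 3.72 and 3.41, close to the mouse controls. None of 13 NuA4 genes and none of 36 TFIID and Mediator genes passed in either direction, with medians of 0.00 and -0.02. A p that misses the threshold does not show that these genes stayed level, since the median SE of a slope was 0.136. Of 37 proteasome genes 1 fell and 0 rose (ECM29, at 3.51, 3.24 and 2.95, within the range of the mouse controls). Of 26 phosphate genes 1 fell and 0 rose (PHO85, the cyclin-dependent kinase of the pathway, 1.46-fold).

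**Figure D4:**
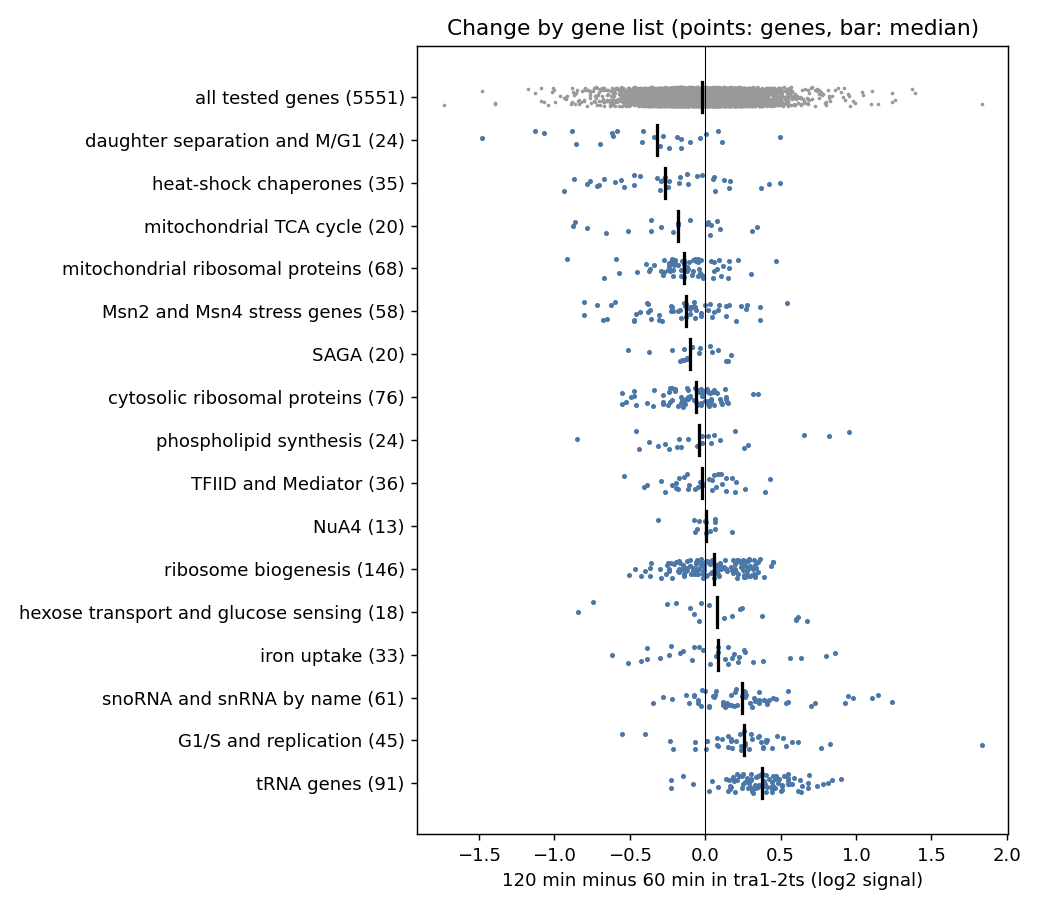
Change from 60 to 120 min in tra1-2ts (log2 signal) for the genes of 15 lists, for tRNA genes and for all 5551 tested genes. Points are genes, vertical bars are medians, and the number of genes is in brackets. Medians run from -0.32 for daughter separation to 0.38 for tRNA genes, and most lists overlap the bulk of all genes.

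RNAs that are not messengers lay mostly higher at 120 min, 144 of 159 of them, with a median of 0.33. All 178 falls were protein-coding genes, whereas 37 of the 117 rises were other RNAs. Of 91 tRNA genes 22 rose and 0 fell, with a median of 0.38, and of 57 snoRNA genes 11 rose and 0 fell, with a median of 0.24. The largest change among tRNA genes was that of YNCE0012W, at 8.73, 9.21 and 9.63. RDN25-1, the 25S ribosomal RNA, read 9.40, 10.25 and 10.77 (2.59-fold, slope 1.37 ± 0.14, adjusted p = 0.000139), RDN37-1, its precursor transcript, read 7.08, 7.96 and 8.47 (2.62-fold), and RDN18-1 read 6.95, 7.85 and 8.05 (2.14-fold). All 3 are repeated genes that share sequence, so they are not independent.

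Among snoRNAs, which guide the modification of ribosomal RNA, a run of 7 neighbouring genes on chromosome XIII, SNR78 to SNR72, made up 6 of the 11 rises. It was picked out after its values were seen. SNR73 read 7.62, 8.83 and 8.86 (2.36-fold), SNR76 read 7.38, 8.33 and 8.52 (2.22-fold), and SNR75 read 7.74, 8.65 and 8.85 (2.15-fold), so most of each rise lay before 90 min. The 7 genes had a median change of 0.95 and the other 50 snoRNA genes of 0.20. SNR72 did not pass (adjusted p = 0.0952), and SNR78 read 2.40, 2.70 and 2.95, under the mouse controls. Outside the run, SNR69 rose 1.97-fold over 6.33, 6.92 and 7.31.

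Several measures outside the genes were also higher at 120 than at 60 min, though not all with the timing of these RNAs. Median steps to 90 and to 120 min were 0.27 and 0.13 for tRNA genes, but -0.03 and 0.12 for probe sets with no named gene. The mouse controls MurFAS, MurIL10, MurIL2 and MurIL4 moved by 0.03, -0.04, -0.06 and -0.27 to 90 min. From 90 to 120 min they moved by 0.05, 0.50, 0.40 and 0.35. The 7 bacterial spike-in probe sets had a median change of 0.29 (range -0.11 to 0.55), the 4 mouse control sets of 0.21 (0.08 to 0.45), and 905 probe sets with no named gene of 0.09. By mean signal, the lowest quartile of genes had a median change of 0.02 and the highest of -0.04. The labelling kit named in the labels starts from poly(A) tails, which mature ribosomal RNA, tRNA and snoRNA lack. The part of priming, of RNA quality or of these shifts in the rise was not tested.

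In wild type, most of the genes called in tra1-2ts changed in the same direction over the same hour. No gene passed the test of a different slope: 0 of 5551 (0%) passed limma's slope difference test, with a smallest adjusted p of 0.670, and 392 (7.06%) had an unadjusted p under 0.05. Of the 117 rises, 90 (76.9%) were also higher at 120 than at 60 min in wild type, and of the 178 falls 140 (78.7%) were also lower there, against 60.2% and 60.1% of all genes higher or lower in tra1-2ts. Across genes the changes of the strains correlated with a Pearson r of 0.364; genes are not independent replicates, and all arrays share 1 normalization. The test has 2 residual degrees of freedom. Its count rose to 83 to 210 genes when any 1 wild-type array was left out, as the spread then came from the tra1-2ts arrays alone.

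The leading genes show where the strains ran alike. RNR1 read 6.65, 7.64 and 8.37 in wild type, a change of 1.72 against 1.83 in tra1-2ts, and RGI1 read 7.64, 6.27 and 5.91, a change of -1.72 against -1.73. HTB2 changed by 1.69 in wild type and 1.00 in tra1-2ts, and SSA4 by -1.72 and -0.87. The list medians in wild type were 0.41 for G1/S genes, -0.42 for daughter separation, -0.42 for chaperones and -0.48 for Msn2 and Msn4 genes, against 0.26, -0.32, -0.27 and -0.13 in tra1-2ts. For tRNA and snoRNA genes the wild-type medians were 0.24 and 0.17, against 0.38 and 0.24 in tra1-2ts. For all 159 RNAs that are not messengers the medians were 0.19 in wild type and 0.33 in tra1-2ts. Whether a list's median differs between the strains was not tested.

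Some other genes read differently in wild type. URA1 read 9.81, 9.64 and 9.76 there, and RDN37-1 read 6.01, 5.82 and 5.99. The largest positive slope differences, tra1-2ts minus wild type, were those of YHR022C (1.74), HSP26, a small heat-shock protein, SNZ1 (1.59), of vitamin B6 synthesis, SNO1 (1.44), FUI1, the uridine permease, and MAG1, a DNA repair glycosylase. HSP26 read 10.07, 9.36 and 9.59 in tra1-2ts and 9.67, 8.86 and 7.59 in wild type, so the strains were apart mostly at 120 min. The largest negative ones were those of HIR3, OXA1 (-1.44), the insertase of the inner mitochondrial membrane, YIL060W, SCS2 (-1.36), a membrane contact protein of the endoplasmic reticulum, FCY21 and YER187W. HIR3 read 5.69, 5.55 and 5.94 in wild type. OXA1 read 8.54, 8.49 and 7.98 in tra1-2ts and 7.85, 8.72 and 8.73 in wild type. None of these differences passed the adjusted test.

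**Figure D5:**
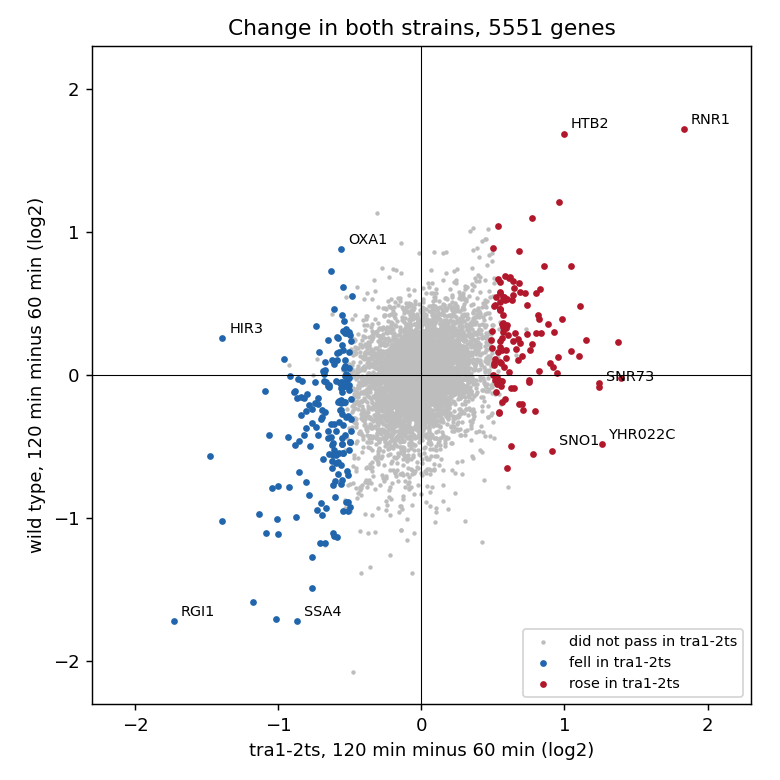
Change from 60 to 120 min in tra1-2ts (x axis) and in wild type (y axis), both in log2 signal, for 5551 genes with 1 array per strain and time; red and blue points rose or fell in tra1-2ts by the within-strain test, grey points did not pass. RNR1 and RGI1 lie far out in the same direction in both strains, while HIR3 and YHR022C lie off it.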

How the data were processed

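RNA of both strains was hybridized to 6 Affymetrix arrays, 1 per strain and time. The deposited log2 values were made by the authors with RMA and oligo, an R package, per the submitters' processing notes (versions not given in the sources used here); the columns of other samples numbered 0. Gene names came from the platform annotation and RefSeq R64: 183 that name several genes and 925 that name none stayed out of the tests, and for 91 genes with several sets the one with the highest mean over 6 arrays was used. The tra1-2ts slope over minutes was fitted with limma 3.58.1 in R 4.3.3 on the 3 tra1-2ts arrays (1 residual degree of freedom, moderated with 13.4 prior ones), two-sided, adjusted over 5551 genes, and checked on simulated data. The number of arrays limits the precision. The slope difference was fitted over 6 arrays. Array numbers in the titles mark the time and so pair the strains, per the labels; deviations of same-time arrays from their strain means correlated across genes with r of 0.31, 0.0656 and 0.33.

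The members and all 47 gene lists were chosen with earlier results of these data known. Genes were named by rule: TRA1, LEU2, HIS3 and mating genes; above the mouse controls, the 12 largest protein-coding rises and falls with 90 min between, the 6 highest peaks and 6 deepest troughs at 90 min, up to 4 members per list by size of change; the 6 smallest p each way; and the 6 largest slope differences each way. Named outside it after their values were seen were NCE103, FRE7, YIR043C, YIP3, URA6, RFA2, RSR1, ASF1, MBP1, CTS1, EGT2, PRY3, PIR1, HSP82, CPR6, STI1, SSA1, SSA3, PNC1, STF2, OXR1, RIM4, RGT2, HXT4, FET5, RDN18-1 and SNR72 to SNR78, and in the closing section PET123, ERV1, TIM9 and TIM10. Promoter sequences were not analysed here. Alternatives covered the normalization, filter, probe sets, moderation, spread, time scale, thresholds and left-out arrays.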

Additional observations from a re-analysis of the deposited data

Results flagged for a closer look

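Only the named genes, some of them chosen for a large slope difference, were searched here, and only slope differences of at least 2-fold. In 8 of these genes every array-to-array step ran one way in tra1-2ts and the opposite way in wild type, while the adjusted test of the slope difference was not passed. How many of all genes do so was not counted. The differences in log2 change, tra1-2ts minus wild type, were 1.74 for YHR022C, 1.59 for SNZ1, 1.44 for SNO1, 1.32 for SNR73, -1.07 for YER187W, -1.17 for FCY21, -1.36 for SCS2 and -1.44 for OXA1. SNZ1 and SNO1, neighbouring genes of vitamin B6 metabolism, read 9.49, 9.80 and 9.92 and 7.68, 8.38 and 8.60 in tra1-2ts.

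Control probe sets for ribosomal RNA, which entered no test, changed from 60 to 120 min in tra1-2ts by 1.19 for the 18S set (9.24, 9.91 and 10.43) and by 0.90 for the 25S set (8.69, 8.91 and 9.59). In wild type the 18S set changed by -0.24 and the 25S set dropped by 1.00.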

How the results depend on the processing

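The count of 295 genes with a slope fell to 0 with quantile normalization, to 0 with the slopes of both strains in 1 fit and to 34 (18 rose, 16 fell) with log2 of minutes, and leaving out each tra1-2ts array in the fit over both strains gave 0 to 0. The prior degrees of freedom were 13.4 in the within-strain fit, 4.63 after quantile normalization and 4.45 over both strains. Centring on medians, which moved the median of all genes by 0.02, gave 225 (109 rose, 116 fell).

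The 24 genes changed 2-fold became 182 at 1.5-fold. The share with 90 min between, 48.3%, became 46.7% with medians centred and 51.4% without the lowest quartile. The 6 genes that turn at 90 min became 2 with medians centred, 3 without the lowest quartile and 0 at 2-fold. The cause of these moves was not tested, except that stricter or looser thresholds change the counts by construction. List members past 1.5-fold numbered 79, and 73 and 75 under centring and quantile normalization; of 47 list medians 4 and 6 changed sign.

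The slope difference count of 0 stayed 0 with the time point as a replicate block (477 at an unadjusted p under 0.05, smallest adjusted p 0.353), the only result the block applies to. Leaving out each of the 6 arrays gave 0 to 210. Of the named genes, 99 passed the slope test, 90 with medians centred (all but GDH2, KAR2, LYS12, NGG1, OXA1, RPC11, RPL24A, RPS25A and TIF4631) and 0 with quantile normalization. The direction turned for MFA2 (0.0158), NDE2 (0.00496) and TIS11 (0.00756) with medians centred and for YSR3 (0.0033) with quantile normalization; none of these 4 had passed.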

Other observations

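The next 4 genes were chosen after their values were seen and stand for no list. PET123, a protein of the small mitochondrial ribosomal subunit, fell 1.90-fold over 5.59, 5.18 and 4.66, and ERV1, the sulfhydryl oxidase of intermembrane space import, fell 1.85-fold over 6.11, 5.72 and 5.22. TIM9 and TIM10, the small import chaperones, fell 1.57-fold over 6.90, 6.71 and 6.25 and 1.59-fold over 8.74, 8.46 and 8.07. In wild type PET123 changed by -0.78, ERV1 by -0.12, TIM9 by 0.24 and TIM10 by 0.04 on the log2 scale.

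Single members of other lists passed as well. These calls say nothing about the lists, since 2.11% of all genes rose and 3.21% fell. ATG2, of autophagosome formation, rose 1.63-fold over 5.05, 5.45 and 5.76, and SRX1, sulfiredoxin, rose 1.52-fold over 7.51, 8.10 and 8.11. PUT4, the proline permease, rose 1.46-fold and TPO2, a polyamine exporter, 1.47-fold. TRP2 and LEU1, of tryptophan and leucine synthesis, fell 1.51-fold and 1.49-fold, and ADH2, the glucose-repressed alcohol dehydrogenase, fell 1.52-fold.

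In the mating pathway RAM1, a farnesyltransferase subunit, fell 1.53-fold over 6.76, 6.69 and 6.15 and AXL1, the protease of a-factor maturation, rose 1.47-fold over 5.63, 6.03 and 6.19. BAR1, the protease that degrades alpha factor, read 8.70, 8.69 and 8.79 in tra1-2ts and 7.54, 7.06 and 6.52 in wild type.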
